A study of Homo sapiens with 11 samples.

Results

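The phosphofructokinase genes were described here by every probe that the platform annotation gives to PFKP, PFKL, PFKM, PFKFB1, PFKFB2, PFKFB3 or PFKFB4. These were 12 of the 42000 probes in the table, for 7 of the 18836 genes that a probe was named for. The arrays were Illumina HT12 beadchips, which read RNA as the brightness of beads that carry a probe, and each array held 1 sample of transfected HEK293T cells, a human embryonic kidney line. There were 6 arrays of cells that received mutDFNA5, a cDNA of the deafness gene DFNA5 (now GSDME) that lacks an exon, and 5 arrays of cells that received wtDFNA5, the full-length cDNA. The sample titles mark the mutDFNA5 arrays as KO, whereas their characteristics name the mutant construct, and the groups here follow the characteristics. Both constructs were delivered with lipofectamine, each dish holds cells that took up the plasmid and cells that did not, and no array without a DFNA5 construct (mock or empty vector) was analysed here. The labels give 6 h after transfection for the harvest and 12 h for the RNA extraction. In such bulk samples fewer cells that carry a transcript and less transcript per cell cannot be told apart.

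Phosphofructokinase 1 (PFK1) commits sugar to glycolysis by adding a second phosphate to fructose 6-phosphate. It works as a tetramer, built from subunits named after muscle (PFKM), liver (PFKL) and platelets (PFKP), which most tissues mix. The PFKFB genes encode a different kind of enzyme, with a kinase and a phosphatase in 1 protein, that makes and removes fructose-2,6-bisphosphate. This sugar phosphate is a strong activator of PFK1, and the PFKFB3 enzyme, which favours its synthesis, is well known from dividing and tumour cells.

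The members are every gene of the family by name, but the family itself was chosen on its measured log2 differences between mutDFNA5 and wtDFNA5 on these arrays. Differences of its probes between the groups are therefore a description, without p-values, and support nothing further. Of the 12 probes, 8 were tested (brighter than background at a detection p below 0.01 on 5 or more arrays), 3 for the PFK1 subunits and 5 for the PFKFB enzymes, and all genes except PFKFB1 kept a probe. Among these 8, limma called 3 higher in mutDFNA5 (adjusted p under 0.05 over all 14542 probes tested) and 0 lower, where 3.91% of all tested probes were called higher, 4.31% lower and 8.22% in either direction. The 3 probes belonged to PFKP, PFKL and PFKFB3. Levels are log2 signals after quantile normalization, and probes differ in how well they bind, so the level of 1 probe says nothing about the level of another.

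To show the DNA at the starts of these genes, the first listed start window (250 bases before and 50 after the start, RefSeq, GRCh38.p14) is printed for each member that had both a tested probe and a window in the table. Capitals mark GCGNGGG on either strand, a short form of the site of EGR factors, which are products of immediate early genes.
PFKP (chr10:3067720-3068019, + strand): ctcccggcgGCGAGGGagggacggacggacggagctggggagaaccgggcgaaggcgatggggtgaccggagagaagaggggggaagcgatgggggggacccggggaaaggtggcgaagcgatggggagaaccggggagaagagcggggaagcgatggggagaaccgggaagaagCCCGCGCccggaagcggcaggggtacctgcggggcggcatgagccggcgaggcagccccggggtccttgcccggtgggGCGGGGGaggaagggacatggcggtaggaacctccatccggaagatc
PFKL (chr21:44299803-44300102, + strand): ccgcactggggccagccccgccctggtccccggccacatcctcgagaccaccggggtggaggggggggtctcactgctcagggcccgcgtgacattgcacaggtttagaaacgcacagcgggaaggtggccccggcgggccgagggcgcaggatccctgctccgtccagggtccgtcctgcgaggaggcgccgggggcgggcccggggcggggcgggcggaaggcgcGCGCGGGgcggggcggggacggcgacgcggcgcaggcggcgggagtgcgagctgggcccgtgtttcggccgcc
PFKM (chr12:48105623-48105922, + strand): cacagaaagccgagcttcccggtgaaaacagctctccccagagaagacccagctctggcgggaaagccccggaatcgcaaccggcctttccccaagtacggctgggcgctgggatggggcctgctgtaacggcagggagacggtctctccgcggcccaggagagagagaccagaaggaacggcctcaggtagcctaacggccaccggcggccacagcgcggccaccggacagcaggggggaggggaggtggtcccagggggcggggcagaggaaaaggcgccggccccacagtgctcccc
PFKFB3 (chr10:6144671-6144970, + strand): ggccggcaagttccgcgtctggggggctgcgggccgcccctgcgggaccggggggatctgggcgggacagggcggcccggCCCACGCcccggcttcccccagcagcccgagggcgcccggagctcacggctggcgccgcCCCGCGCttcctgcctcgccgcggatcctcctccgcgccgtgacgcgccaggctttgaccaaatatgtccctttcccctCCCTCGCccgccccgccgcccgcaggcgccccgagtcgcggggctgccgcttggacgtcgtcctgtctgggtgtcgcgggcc
PFKFB4 (chr3:48556754-48557053, - strand): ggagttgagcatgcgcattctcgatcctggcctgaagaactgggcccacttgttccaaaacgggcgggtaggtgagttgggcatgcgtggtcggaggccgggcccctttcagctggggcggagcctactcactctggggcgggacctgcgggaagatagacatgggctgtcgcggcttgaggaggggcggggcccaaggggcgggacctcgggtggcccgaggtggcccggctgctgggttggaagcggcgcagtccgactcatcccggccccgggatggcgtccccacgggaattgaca
The EGR-like letters were in 4 of 4 windows of PFKP, 1 of 1 of PFKL, 0 of 7 of PFKM (some of which overlap), 0 of 2 of PFKFB1, 2 of 2 of PFKFB3 and 0 of 1 of PFKFB4. Of all 35116 windows 34.2% held them, and of those with at least 65% G and C 71.5% did. The windows with a match held 53.3% to 79.7% G and C (median 74.3%) and those without held 37% to 71.3% (median 60%). The ranges overlap, but the median was higher in the windows with a match. The motif was chosen with earlier results of these data known, so these counts are a description and no comparison between genes. The core of the hypoxia response site, ACGTG on either strand, was in 1 window of PFKP, 1 of PFKFB3 and 2 of PFKM, and in 21.4% of all windows. The AP-1 letters TGANTCA (either strand) were found in 1 PFKFB1 window only (7.71% of all windows). TGACG, the core letters of CREB sites, was found (either strand) in 1 PFKP window and in both PFKFB3 windows (24.6% of all windows). A match is a run of letters, and whether any factor binds there was not tested.

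PFKP carried the largest difference of the family. Its main probe (ILMN_1805737) read between 10.14 and 10.43, with a median of 10.30, on the 6 mutDFNA5 arrays. On the 5 wtDFNA5 arrays it read 9.77, 9.84, 9.75, 9.93 and 9.74. The groups did not overlap: the lowest mutDFNA5 array lay 0.21 above the highest wtDFNA5 array. The means were 10.29 ± 0.12 (SD, n = 6) in mutDFNA5 and 9.80 ± 0.08 (SD, n = 5) in wtDFNA5. The log2 difference was 0.48 with a standard error of 0.08, or 1.40-fold, and 0.640% of all tested probes showed a larger rise. It was called in each of the 11 fits that left out 1 array (log2 difference 0.46 to 0.51) and with normexp background correction (0.54) and median scaling (0.59). A second PFKP probe (ILMN_1851760), annotated to a separate cDNA sequence, was near the level of negative control beads. It was detected on 2 of 6 mutDFNA5 arrays and 1 of 5 wtDFNA5 arrays, lay between 7.05 and 7.55 on all arrays and was not tested.

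PFKL, the liver-type subunit, was also higher in mutDFNA5, with a wider spread. Its main probe (ILMN_1713037) ranged over 9.05 to 9.44 on the mutDFNA5 arrays, with a median of 9.35. The wtDFNA5 arrays gave 8.96, 8.93, 8.91, 9.08 and 8.89. Replicates 2 and 3 of mutDFNA5 (9.08 and 9.05) fell inside the wtDFNA5 range, just below its highest array. The other 4 mutDFNA5 arrays lay above the whole wtDFNA5 range. The means were 9.28 ± 0.17 (SD, n = 6) and 8.95 ± 0.08 (SD, n = 5) for mutDFNA5 and wtDFNA5, a log2 difference of 0.33 (standard error 0.08), or 1.26-fold. PFKL was called in all 11 fits without 1 array (0.30 to 0.37), with normexp background correction (0.41) and with median scaling (0.43). Its second probe (ILMN_2287253), annotated to a separate transcript variant, was detected on 1 of 6 mutDFNA5 and 0 of 5 wtDFNA5 arrays and was not tested.

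PFKM, the muscle-type subunit, differed between the groups by less than its spread between arrays. Its single probe (ILMN_2043809) read 9.48 to 9.81 (median 9.68) on the mutDFNA5 arrays. The wtDFNA5 arrays read 9.45, 9.74, 9.64, 9.53 and 9.87, so the lowest and the highest array were both wtDFNA5. The log2 difference was 0.01 (standard error 0.09), and its sign turned with single arrays left out (-0.04 to 0.07). The 3 tested PFK1 probes therefore ran from 0.01 to 0.48 with a median of 0.33. The median of all tested probes was -0.004.

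**Figure D1:**
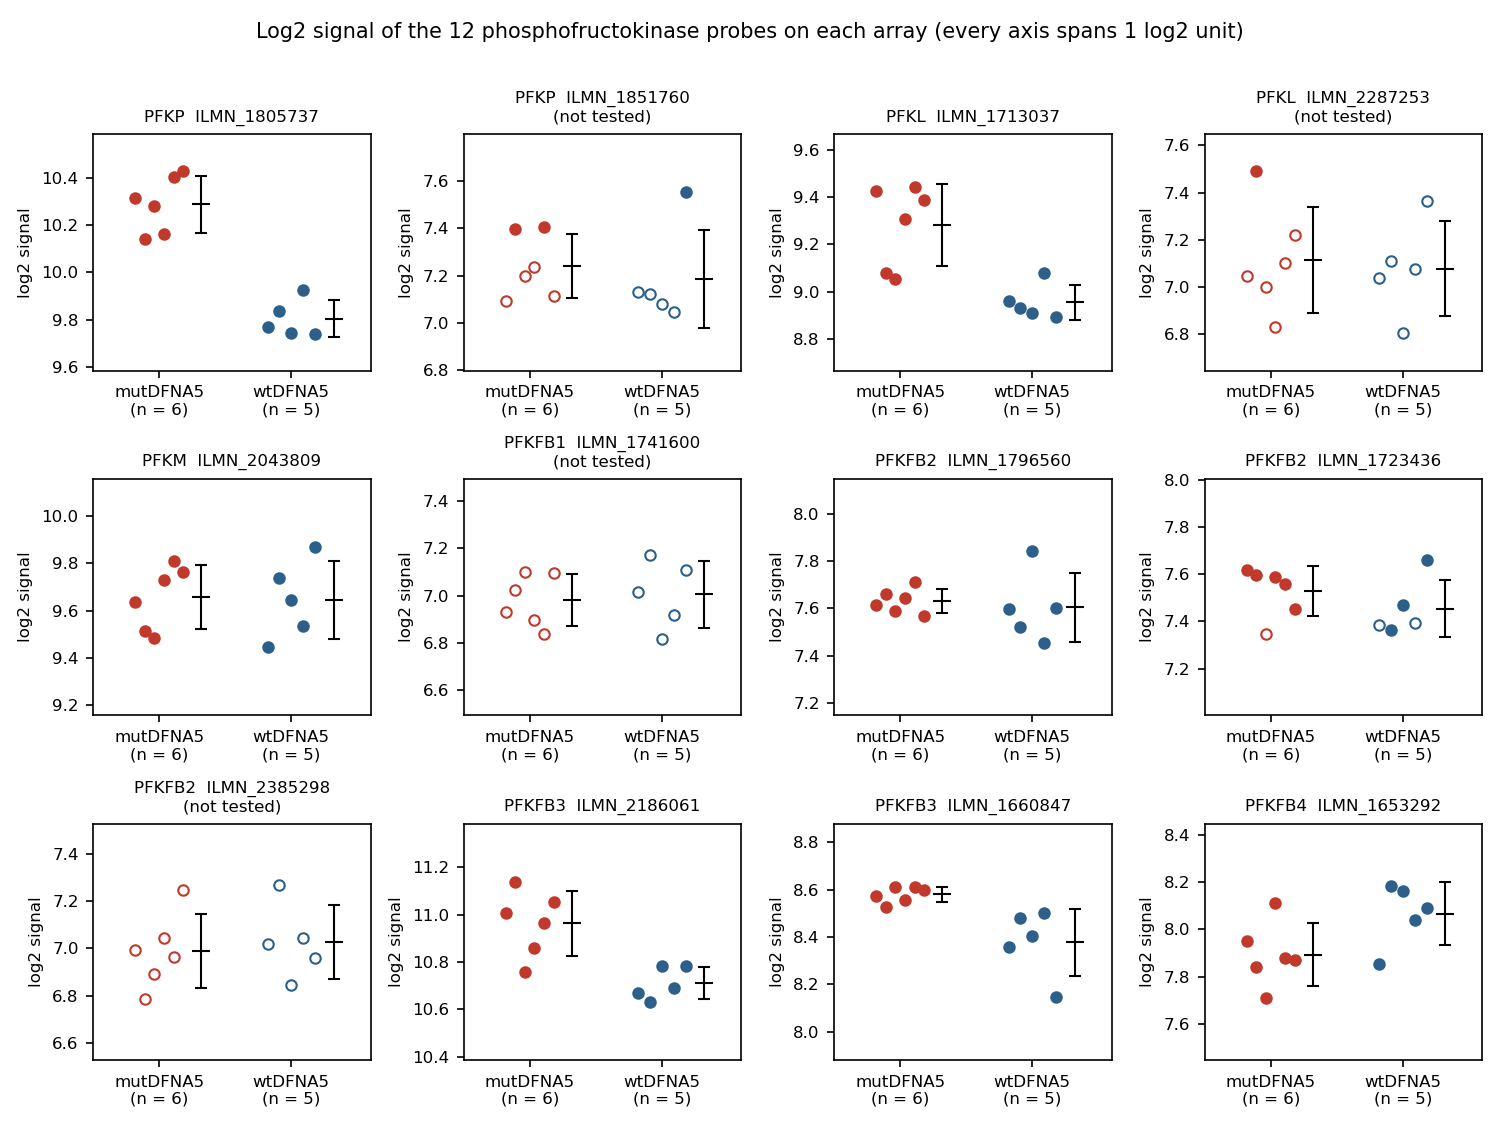
Log2 signal (y axis) of the 12 phosphofructokinase probes on each mutDFNA5 array (red, left) and wtDFNA5 array (blue, right). Filled points were detected, open points were not, and the black bar gives the mean ± SD of the group. The groups are apart for PFKP ILMN_1805737 and PFKFB3 ILMN_1660847, and they overlap for the other 10 probes.

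PFKFB3 was read by a pair of probes that were annotated to the same transcript, and both had a higher mean in mutDFNA5. The brighter probe (ILMN_2186061) read 10.76 to 11.14, with a median of 10.98, on the mutDFNA5 arrays. It read 10.67, 10.63, 10.78, 10.69 and 10.78 on the wtDFNA5 arrays. Replicate 3 of mutDFNA5 (10.76) fell inside the wtDFNA5 range and the other 5 lay above it. The means were 10.96 ± 0.14 (SD, n = 6) in mutDFNA5 and 10.71 ± 0.07 (SD, n = 5) in wtDFNA5, a log2 difference of 0.25 (standard error 0.08), or 1.19-fold. This probe was just inside the threshold: it was called in 2 of the 11 fits without 1 array (without mutDFNA5 replicate 3 or 4) with log2 differences of 0.22 to 0.29 over the 11. With normexp background correction (0.27), with median scaling (0.36) and without the filter it was not called.

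The dimmer PFKFB3 probe (ILMN_1660847) showed the reverse combination of overlap and call. On mutDFNA5 arrays it stayed within 8.53 to 8.61 (median 8.59). The wtDFNA5 arrays gave 8.36, 8.48, 8.40, 8.50 and 8.15, all below the mutDFNA5 range. The gap between the groups was only 0.03, and the log2 difference of 0.20 (standard error 0.08) was not called in any of the fits. Without wtDFNA5 replicate 5, its lowest array, the difference was 0.14. After the group means were subtracted, the readings of the 2 PFKFB3 probes ran against each other over the 11 arrays (Pearson r = -0.37, a description of arrays that share 1 normalization). Groups that do not overlap, with mutDFNA5 above, were found for 2 of the 8 tested members and for 2.61% of all tested probes. With mutDFNA5 below they were found for 0 of the 8 and for 3.20% of all.

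The other PFKFB genes showed smaller differences or no detected signal. PFKFB4, known from testis and from hypoxic cells, was the only tested member with a lower mean in mutDFNA5. Its probe (ILMN_1653292) read 7.71 to 8.11 (median 7.87) on mutDFNA5 arrays and 7.86, 8.18, 8.16, 8.04 and 8.09 on wtDFNA5 arrays. The groups overlapped, because wtDFNA5 replicate 1 (7.86) lay among the mutDFNA5 arrays and mutDFNA5 replicate 4 (8.11) among the wtDFNA5 arrays. The log2 difference was -0.17 (standard error 0.08) and was not called under any setting. With normexp background correction, which corrects all probes for a background level inferred from the detection p-values, it was -0.31.

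PFKFB2, the heart-type enzyme, had 2 tested probes, both just above background. The first (ILMN_1796560) was detected on all 11 arrays and averaged 7.63 ± 0.05 (SD, n = 6) in mutDFNA5 and 7.60 ± 0.15 (SD, n = 5) in wtDFNA5, a log2 difference of 0.03 (standard error 0.08). The second (ILMN_1723436) was detected on 5 of 6 mutDFNA5 and 3 of 5 wtDFNA5 arrays. Its log2 difference was 0.07 (standard error 0.08), and 0.19 with normexp background correction, so it is not an exact size. Another PFKFB2 probe (ILMN_2385298) and the only probe of PFKFB1 (ILMN_1741600), the liver and muscle gene of the group, were not detected on any array. The 5 tested PFKFB probes ran from -0.17 to 0.25 with a median of 0.07.

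**Figure D2:**
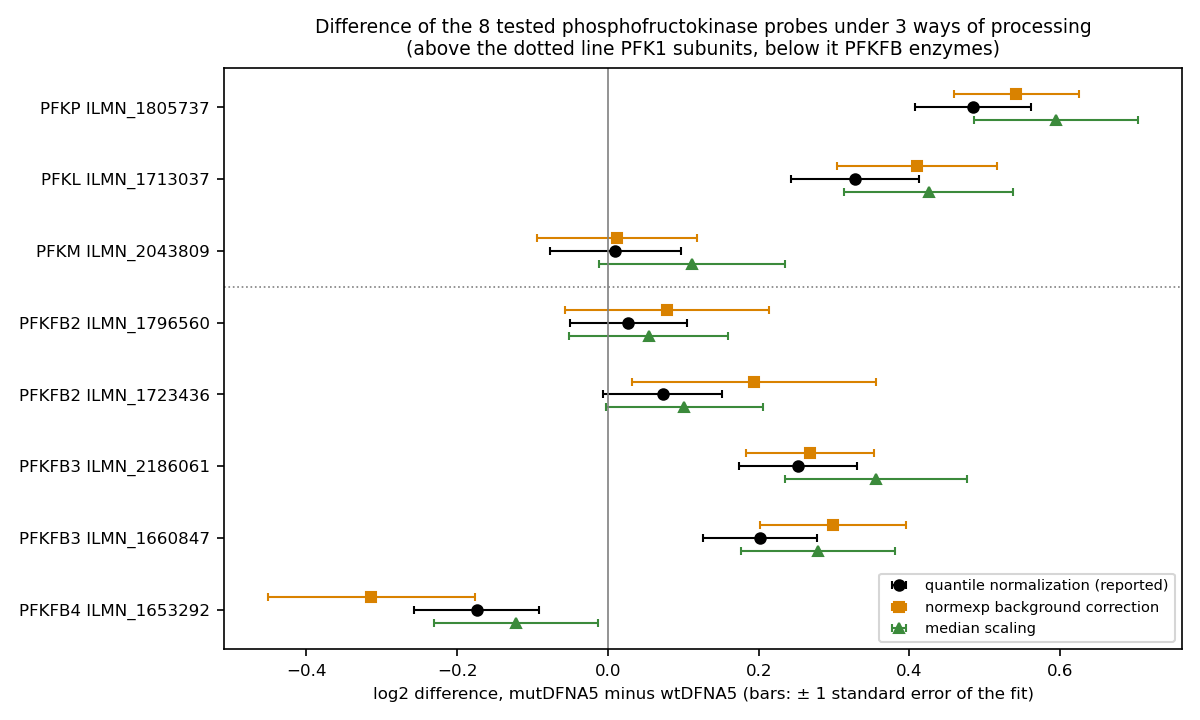
Log2 difference, mutDFNA5 minus wtDFNA5 (x axis), of the 8 tested probes, with bars of 1 standard error to each side, under the reported processing, with normexp background correction and with median scaling. PFKP and PFKL lie farthest to the right under each of the 3, PFKM lies between 0.01 and 0.11, and PFKFB4 lies left of 0.

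Side by side, 2 of 3 tested PFK1 probes and 1 of 5 tested PFKFB probes were called higher, against 3.91% of all tested probes. The PFKFB call, at the brighter PFKFB3 probe, held in only 2 of the 11 fits without 1 array. The difference between these families was not tested, since it comes from the same contrast. Medians of the PFK1 and PFKFB probes were 0.41 and 0.19 with normexp background correction, and 0.43 and 0.10 with median scaling, which moved the median of all tested probes to 0.07. Over the 11 arrays with group means subtracted, PFKP and PFKL varied together (r = 0.67), PFKL and PFKM less so (r = 0.38), and PFKP had r = -0.09 with the brighter PFKFB3 probe and r = 0.53 with the dimmer one. These are descriptions over arrays normalized together.

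**Figure D3:**
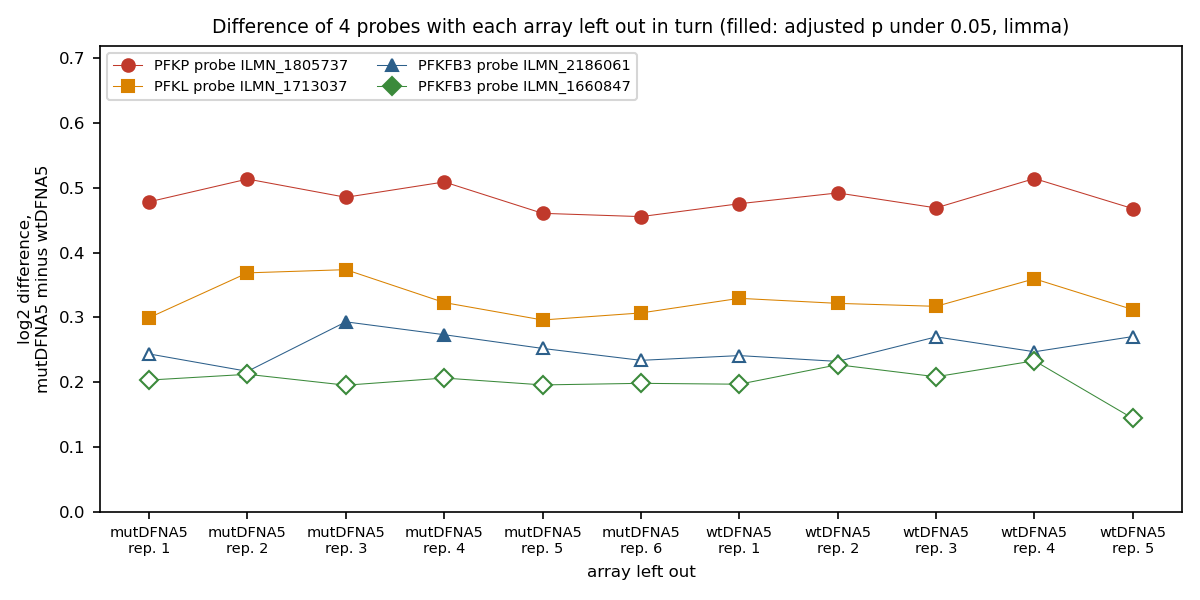
Log2 difference, mutDFNA5 minus wtDFNA5 (y axis), of the main PFKP and PFKL probes and both PFKFB3 probes, with each of the 11 arrays left out in turn (x axis). Filled points passed an adjusted p of 0.05 (limma): PFKP and PFKL in all 11 fits, the brighter PFKFB3 probe in 2 and the dimmer one in 0.

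Enzymes on either side of the phosphofructokinase step showed no called change. Of 28 other glycolysis genes 26 had a probe and 17 were tested, and limma called 0 of them in either direction, against 8.97% of all 9653 genes. With unadjusted p under 0.05 there were 2 of 17, HK2 and LDHC, against 23.8% of all genes. Hexokinase 2 (HK2), which phosphorylates glucose, had a log2 difference of 0.22 (limma, adjusted p = 0.123), and its second probe gave 0.22 as well. LDHC, a lactate dehydrogenase of testis, had a log2 difference of -0.20 (limma, adjusted p = 0.0803), and its second probe gave -0.02. The isomerase GPI, just before the phosphofructokinase step, differed by 0.003, and the aldolases just after it, ALDOA and ALDOC, by -0.05 and -0.07. TIGAR, which breaks down fructose-2,6-bisphosphate, had -0.14 (limma, adjusted p = 0.399). The fructose bisphosphatases FBP1 and FBP2, which run the step backwards, were not detected on any array. The median of the 17 genes was 0.003 and that of all genes was -0.005.

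**Figure D4:**
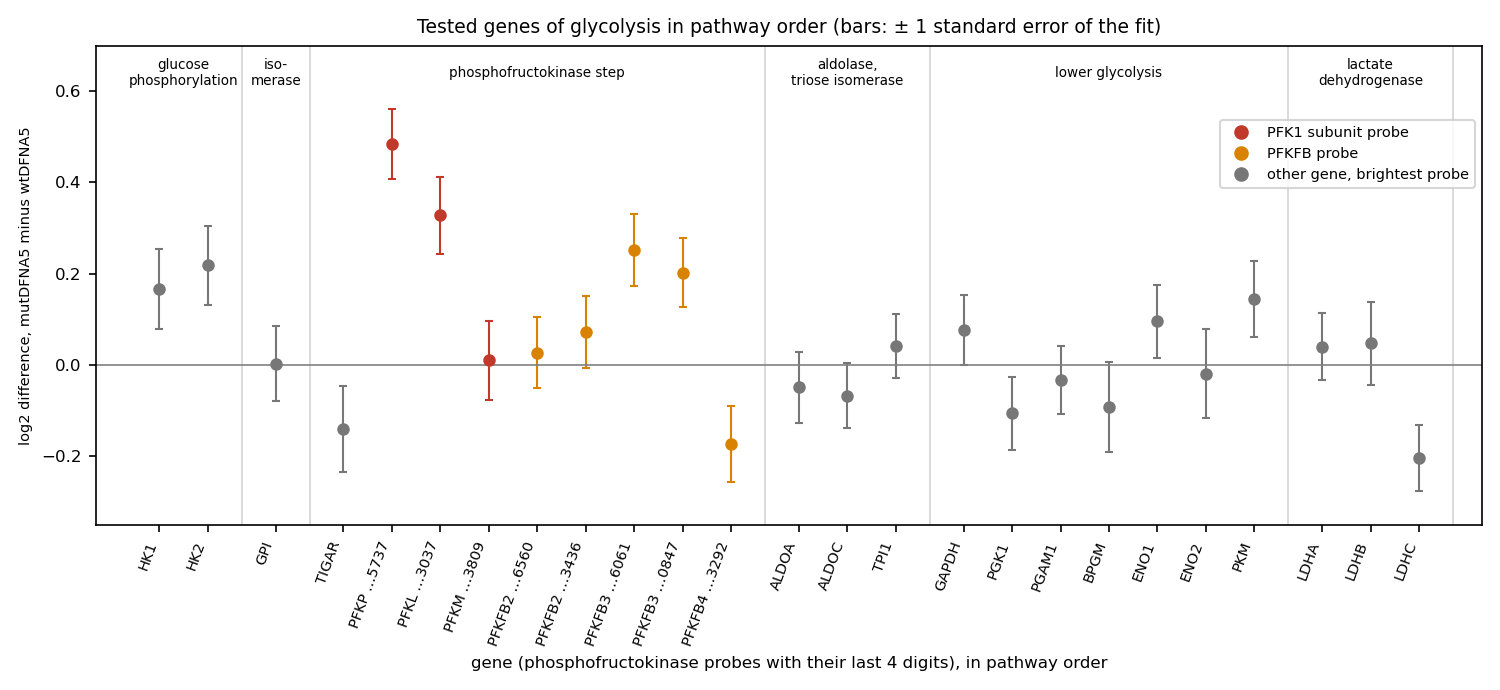
Log2 difference, mutDFNA5 minus wtDFNA5 (y axis, bars of 1 standard error to each side), of tested glycolysis genes in pathway order, with the PFK1 probes in red, the PFKFB probes in orange and the brightest probe of each other gene in grey. PFKP at 0.48 and PFKL at 0.33 are the highest points, and the grey points lie between -0.20 and 0.22. The phosphofructokinase family was chosen on these differences, so its place beside the grey points is a description only.

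Among genes known to act on PFK1 or PFKFB enzymes or on their transcription, EPAS1 and MAPKAPK2 were called. Of 21 such genes 19 were tested, 2 were called higher and 0 lower, against 4.05% and 4.92% of all genes. With unadjusted p under 0.05 there were 7 of 19, against 23.8% of all genes. EPAS1, the hypoxia factor HIF-2 alpha, averaged 8.99 ± 0.18 (SD, n = 6) in mutDFNA5 and 8.49 ± 0.07 (SD, n = 5) in wtDFNA5, a log2 rise of 0.50 (standard error 0.09, limma adjusted p = 0.000757), and all 6 mutDFNA5 arrays lay above all wtDFNA5 arrays. MAPKAPK2, a kinase downstream of p38, rose by 0.30 on the log2 scale (standard error 0.09, limma adjusted p = 0.0378). Its call was lost without mutDFNA5 replicate 1, 2 or 4 or wtDFNA5 replicate 1, 4 or 5 (adjusted p = 0.0551 to 0.0972). HIF1A, the other hypoxia factor of the list, differed by 0.18 (limma, adjusted p = 0.294). Its other probes gave 0.21 and 0.12 (limma, adjusted p = 0.133 and 0.374). Of the AMPK subunits, PRKAA1 differed by 0.23 (limma, adjusted p = 0.122, and 0.03 at its second probe) and PRKAB1 by -0.28 (limma, adjusted p = 0.0508). PRKAB1 was called lower with detection on all 11 arrays, with the trended and robust prior, without mutDFNA5 replicate 1 and without wtDFNA5 replicate 2. PRKAG1 differed by -0.27 (limma, adjusted p = 0.0907), and leaving out wtDFNA5 replicate 3 brought it a lower call. The other AMPK subunits, PRKAA2, PRKAB2 and PRKAG2, differed by -0.0001, -0.10 and 0.13 (PRKAG2 0.09 at its second probe) and were not called under any setting. CDK6 differed by 0.27 (limma, adjusted p = 0.0936) and was called higher without mutDFNA5 replicate 4. RPS6KA3 differed by 0.19 (limma, adjusted p = 0.171), and its other probes gave 0.14 and 0.09.

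Among the genes whose readings followed the brightest member of each family most closely over the 11 arrays, after subtraction of the group means, were CHD7, PSEN2 and EPHA8 for PFKP (Pearson r = 0.93, 0.92 and 0.86). For the brighter PFKFB3 probe they were ZNF189, GPRC5B and VBP1 (r = 0.97, 0.91 and 0.90). They were the top 3 of 9647 candidate genes, and 0.187% of candidates for PFKP and 0.290% for PFKFB3 had an r above 0.8. Their own log2 differences were 0.28, 0.14 and 0.06 for CHD7, PSEN2 and EPHA8, and -0.02, 0.04 and -0.03 for ZNF189, GPRC5B and VBP1. As the extremes of so many candidates over 11 arrays normalized together, these genes are a description. Whether any of them is linked to PFKP or PFKFB3 was not tested.

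Between 14029 and 15443 probes were detected per array, array medians before normalization ran from 6.90 to 7.33, and arrays correlated at 0.985 or more over the tested probes. The probe for the transfected gene gave a log2 difference of 0.03 (limma, adjusted p = 0.908), and its place relative to the constructs is not known here, so it does not check the labels. Of 7 genes listed as markers of the HEK293 line, 5 were tested. The neurofilament NEFM was higher in mutDFNA5 by 0.75 (limma, adjusted p = 8.91e-07). VIM, INA, NEFL and KRT18 each had a probe detected on all 11 arrays. Their log2 differences were -0.06, 0.09, 0.08 and 0.04, and none was called. The keratin KRT8 and the kidney factor PAX2 were not detected on any array. Of 13 genes of blood, fibroblasts, endothelium and hepatocytes, 2 passed the filter (CD14 and PECAM1, log2 difference -0.04 for each), both near background, and ALB, CDH5, COL1A2 and PTPRC were not detected on any array. Precision is limited by having 6 and 5 arrays, and p-values measure the spread between replicates that the study describes as biologically independent.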

How the data were processed

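The authors deposited log2 signals per probe, not normalized between arrays, with a detection p-value for each probe and array, which gives its rank among negative control beads. A second table that the authors deposited holds the same readings after their own quantile normalization, also in log2. The methods name beadarray, quality control, quantile normalization and limma, and the submitters' processing notes name limma 3.24.4. Whether the signals were background corrected is not given in the sources used here. Here signals were quantile normalized (limma 3.58.1, R 4.3.3), which gave values within 0.019 of the authors' table.

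A probe was tested where its detection p was below 0.01 on 5 or more arrays (14542 of 42000). Differences are mutDFNA5 minus wtDFNA5 from limma's moderated two-sided test without covariates, with Benjamini-Hochberg adjustment over all tested probes, and the script was tested on simulated data. Probes were named through annotation of a later HT12 version than the methods name, updated to RefSeq symbols: 27916 had 1 symbol, 7 had several and 14077 were not listed. For other genes the brightest probe was used. Members, lists, motifs and tests were chosen with earlier results of these data known. Named were all member probes, called genes of the 2 lists or else the smallest p, and the 3 closest genes by correlation. FBP1, FBP2, GPI, ALDOA, ALDOC, TIGAR, HK2, HIF1A, the AMPK subunits and the undetected markers were added for their role after their values were seen. CDK6, RPS6KA3, VIM, INA, NEFL and KRT18 were also added after their values were seen. Start windows came from a RefSeq table of 35116 windows; array probe sequences were not used here.

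Alternatives were normexp background correction (offset 16), median scaling, the authors' table, no filter, detection on all 11 arrays, a trended and robust prior, the replicate number as a block, and each array left out.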

Additional observations from a re-analysis of the deposited data

Results flagged for a closer look

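The second PFKP probe (ILMN_1851760) read 7.55 in wtDFNA5 replicate 5, far above the next wtDFNA5 array at 7.13, a gap of 0.832 of the whole range of that group. This was the only array on which the probe was detected in wtDFNA5. Among 28 groups of readings examined in this way (the 12 probes, EPAS1 and MAPKAPK2 in each group of arrays) it was the only one with an array so far apart, and chance gives about 1 in 20.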

How the results depend on the processing

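Of the phosphofructokinase probes 3 were called, and 2 to 3 were called under each setting other than the replicate block. PFKP was called under all of them, and PFKL under all but the block. The replicate block leaves mutDFNA5 replicate 6 without a partner, so its differences are those without that array: 762 probes were called with the block, 865 without replicate 6 alone and 1196 with all arrays. With the block 1 member was called (PFKP, 0.46), and PFKL kept a log2 difference of 0.31 and was not called; without replicate 6 alone PFKP and PFKL were called. The EPAS1 and MAPKAPK2 calls held with the block. The labels give the numbers no meaning as pairs, and same-numbered arrays did not deviate together (correlation -0.06 to 0.11 over 5 numbers, over 0.1 for 1). Median scaling called 448 probes, of which 16.1% were lower against 52.4%. In the regulator list 1 gene, EPAS1, was called with normexp background correction, with median scaling and without a filter, while 3 (EPAS1, MAPKAPK2 and PRKAB1) were called with detection on all 11 arrays and with the trended and robust prior, and 1 to 3 with 1 array left out. The cause of these shifts was not tested. The glycolysis list kept 0 calls under all settings. No called member changed sign. Dim probes limit PFKFB2 and PFKFB4, whose log2 differences moved to 0.19 (ILMN_1723436) and -0.31 with normexp background correction, and PFKP moved to 0.59 with median scaling.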
